A study of Mus musculus with 43 samples.

Results

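The set described here holds 257 mouse genes whose bulk RNA level was at least 2-fold higher with transforming growth factor beta 1 (TGFB1) than with vehicle in intestinal organoids under all 3 conditions measured. The members were selected on those bulk values. In each of 3 tables of FPKM (fragments per kilobase of transcript, scaled to the mapped fragments of the library), log2(mean TGFB1 + 1) minus log2(mean vehicle + 1) had to be at least 1, and the mean over the 6 libraries at least 1 FPKM. Of 23951 genes in each table, 272 passed the fold in all 3 tables, 261 of these also passed the level, and 4 whose symbols begin with Mir, Snor or Gm plus a digit were dropped. The level and name rules alone left 10690 genes, the background for the bulk counts below. Members made up 2.4% of that background, whereas 64 genes, or 0.599%, were at least 2-fold lower in all 3 tables.

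The organoids were primary intestinal cultures of wild-type C57BL/6 mice, which hold epithelium without the stroma and immune cells of the tissue. Bulk libraries came in 6 groups of 3. D7 non-IR organoids were not irradiated and were collected on day 7. D7 IR and D11 IR organoids received 4 Gy on day 4 and were collected on day 7 or day 11. Within each condition, 3 libraries had vehicle and 3 had TGFB1 at 2 ng/mL, given for 24 h from day 6. By the labels the D11 libraries were therefore collected days after the end of that treatment. Single-cell libraries came from organoids irradiated with 4 Gy on day 4 and collected on day 8, given vehicle (0 h) or 1 ng/mL TGFB1 for 6, 15 or 24 h, with 1 library per time. Another 3 single-cell libraries held Ki67-RFP+ cells sorted from crypts of the proximal small intestine of Mki67tm1.1Cle/J mice, which report the proliferation gene Mki67 with a red fluorescent protein. Of these, 1 library came from a non-irradiated littermate control and 2 from mice 56 h after 12 Gy to the whole body. The labels do not say whether replicate libraries came from separate cultures or mice, so the spread between replicates may be technical.

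TGFB1 is a secreted cytokine. It binds a pair of receptor kinases, which phosphorylate the receptor-regulated SMAD proteins, and these enter the nucleus with SMAD4 and act on genes together with partners such as AP-1 (FOS and JUN family dimers) and TEAD factors with their co-activator YAP. In epithelia the pathway is known for slowing proliferation, for building matrix, integrins and the actin cytoskeleton, and for inducing its own inhibitors. In the intestine, injury is known to bring crypt cells into a fetal-like regenerative state, marked by clusterin, annexins and Ly6a, in which YAP takes part.

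Summed FPKM ran from 447728 to 621996 over the bulk libraries, in which 11040 to 11361 genes exceeded 1 FPKM. Their read depth is not known. The 9 pan-epithelial markers were all expressed and summed to at least 5449 FPKM in every bulk library. The 16 immune markers summed to at most 20.1 FPKM, with 7 to 10 of them under 0.1 FPKM. The 12 mesenchymal markers, with 8 to 11 of them under 0.1 FPKM, summed to 0.756 to 0.819 FPKM with vehicle and 0.830 to 1.14 FPKM with TGFB1 in D7 non-IR, 0.694 to 0.996 and 3.28 to 5.05 FPKM in D7 IR, and 0.653 to 0.816 and 1.27 to 2.22 FPKM in D11 IR. Immune marker sums were 2.66 to 3.68 FPKM with vehicle and 2.37 to 2.84 FPKM with TGFB1 in D7 non-IR, 6.09 to 6.76 and 12.9 to 15.7 FPKM in D7 IR, and 4.03 to 6.00 and 15.9 to 20.1 FPKM in D11 IR, and the part of either list in the members' changes was not tested. The 7 single-cell libraries kept 699 to 4283 cells, with median depths of 6709 to 14399 UMIs (unique molecular identifiers) per cell. By the marker lists 100% of organoid cells and 99.4 to 99.9% of crypt cells were epithelial. Libraries shared at most 1 cell barcode. The pan-epithelial sums were 6042 to 6122 FPKM with vehicle and 13998 to 14568 FPKM with TGFB1 in D7 non-IR, 6153 to 6344 and 14471 to 15631 FPKM in D7 IR, and 5449 to 6667 and 7155 to 7871 FPKM in D11 IR. Of 12 proliferation markers, 4, 10 and 0 were at least 2-fold lower with TGFB1 in the 3 conditions, and of 12 enterocyte markers 7, 1 and 7, with median log2 changes of -1.38, -0.07 and -1.03 for the latter. The part of these shifts in the members' changes was not tested. In bulk libraries, more cells of a type and more RNA per cell cannot be told apart.

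Of the members, 200 had 1 or more start sites in the RefSeq promoter table (build GRCm38.p6), giving 263 promoters. The other 57, among them Clu, Ctgf and Pmepa1, had no entry. Motif letters were searched on both strands in the 250 bases before the start and the 50 bases after it. The AP-1 letters TGANTCA stood in 27 of 263 member promoters (10.3%), beside 5.16% of 11050 promoters of the background genes and 7.81% of all 32851 promoters in the table. The TEAD letters GGAATG stood in 51 member promoters (19.4%), beside 12.1% and 14.7%, and the 5-base SMAD letters CAGAC in 162 (61.6%), beside 46.6% and 49.6%. The palindromic SMAD letters GTCTAGAC and the serum response element stood in none of the 263, beside 0.244% and 0.0272% of the background promoters. The letters were counted separately, and matches of different motifs may overlap. Over the table's entries the median GC content was 59.7% in member promoters and 61.0% in those of the background genes. A match is a description of the letters and not a binding site.

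The 250 bases before the start follow for 5 members, 5′ to 3′ along the gene's strand, with AP-1 letters in capitals in the first 3 and TEAD letters in the last 2 (on the opposite strand GGAATG reads CATTCC). They are shown because Sprr1a, S100a11 and Plaur carry AP-1 letters and were higher after 12 Gy below, Sprr1a and Plaur among the largest rises, and because Cyr61 and Ajuba are textbook YAP and TEAD targets. The start of the gene is the reference for each distance.
Sprr1a: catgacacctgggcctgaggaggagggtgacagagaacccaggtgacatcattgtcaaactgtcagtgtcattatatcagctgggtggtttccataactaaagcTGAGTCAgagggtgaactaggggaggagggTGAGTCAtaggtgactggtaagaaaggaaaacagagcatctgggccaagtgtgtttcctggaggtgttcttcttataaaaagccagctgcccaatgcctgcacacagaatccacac
S100a11: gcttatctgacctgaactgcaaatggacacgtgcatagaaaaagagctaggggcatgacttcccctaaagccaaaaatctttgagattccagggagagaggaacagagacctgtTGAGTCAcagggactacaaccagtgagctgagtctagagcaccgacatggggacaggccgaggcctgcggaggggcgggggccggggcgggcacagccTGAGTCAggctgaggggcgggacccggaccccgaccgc
Plaur: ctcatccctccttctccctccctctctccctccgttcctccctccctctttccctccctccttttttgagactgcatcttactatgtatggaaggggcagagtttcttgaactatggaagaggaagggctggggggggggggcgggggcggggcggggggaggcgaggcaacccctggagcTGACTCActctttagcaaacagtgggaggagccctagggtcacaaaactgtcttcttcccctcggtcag
Cyr61: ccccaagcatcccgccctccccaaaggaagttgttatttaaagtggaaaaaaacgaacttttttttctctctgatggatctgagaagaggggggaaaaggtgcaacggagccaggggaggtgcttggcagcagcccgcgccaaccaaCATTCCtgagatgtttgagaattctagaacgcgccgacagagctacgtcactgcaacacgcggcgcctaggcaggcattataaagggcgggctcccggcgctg
Ajuba: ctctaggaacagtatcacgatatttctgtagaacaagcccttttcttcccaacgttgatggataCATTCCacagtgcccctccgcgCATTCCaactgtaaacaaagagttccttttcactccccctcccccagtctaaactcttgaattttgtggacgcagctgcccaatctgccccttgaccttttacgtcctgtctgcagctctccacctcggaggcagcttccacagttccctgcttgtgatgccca
Sprr1a lies at chr3:92485882-92486131, minus strand, with AP-1 letters 146 and 116 bases before the start. S100a11 lies at chr3:93520246-93520495, plus strand, with AP-1 letters 136 and 38 bases before the start. Plaur lies at chr7:24462233-24462482, plus strand, with AP-1 letters 69 bases before the start. Cyr61 (now Ccn1) lies at chr3:145649986-145650235, minus strand, with TEAD letters 103 bases before the start. Ajuba lies at chr14:54577662-54577911, minus strand, with TEAD letters 186 and 164 bases before the start.

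In bulk RNA the members rose from low or moderate levels to a median of 17.0 to 20.4 FPKM. The median member level with vehicle was 3.47 FPKM in D7 non-IR, 3.08 in D7 IR and 3.13 in D11 IR, and 62, 57 and 65 members were under 1 FPKM there. The median log2 change of the members was 1.76, 1.95 and 1.66, beside -0.02, -0.03 and 0.02 over the background genes. These values chose the members and are given without a test. At least a 2-fold rise was seen in 5.12% of background genes in D7 non-IR, 7.34% in D7 IR and 4.91% in D11 IR. In each of the 257 members all 3 TGFB1 libraries lay above all 3 vehicle libraries in every table, which 16.2% of background genes did. The selection on the same values favours such separation, so it is no evidence about the members.

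The member just inside the threshold was Tmem43, with a smallest log2 change of 1.0009, after Tspan9 at 1.0012 and Gcnt1 at 1.0018. Just outside were Cldn4 at 0.9983, Atp10b at 0.9982 and Tbc1d2 at 0.9962. Cldn4, a claudin of tight junctions, had log2 changes of 2.17 and 3.55 in the D7 conditions and missed only by its value in D11 IR.

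Cym, Anxa8 and Clu led the members by their smallest change over the 3 tables. Cym encodes chymosin, an aspartic protease of the newborn stomach. It stood at 0, 0.0284 and 0.0559 FPKM with vehicle and 60.4, 39.2 and 40.0 FPKM with TGFB1 in D7 non-IR, 0.0667, 0.475 and 0.340 FPKM with vehicle and 251, 256 and 162 FPKM with TGFB1 in D7 IR, and 0, 0.304 and 0.575 FPKM with vehicle and 389.5, 253 and 303 FPKM with TGFB1 in D11 IR. Its vehicle libraries were near or at 0 in all conditions, and the log2 changes were 5.53 (SE 0.20), 7.44 (SE 0.26) and 7.93 (SE 0.26). Clu encodes clusterin, a secreted chaperone and a marker of damage-induced crypt cells. It stood at 48.5, 43.2 and 51.3 FPKM with vehicle and 1806, 1765 and 1732 FPKM with TGFB1 in D7 non-IR. In D7 IR it stood at 186, 179 and 208 FPKM with vehicle and 3839, 3912 and 4154 FPKM with TGFB1. In D11 IR it stood at 72.1, 78.2 and 85.4 FPKM with vehicle and 4352, 3563 and 3899.6 FPKM with TGFB1. All groups were far apart, and vehicle levels were highest in D7 IR, with log2 changes of 5.18 (SE 0.07), 4.37 (SE 0.07) and 5.63 (SE 0.11).

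Annexins and S100 proteins bind calcium, and annexins also bind membranes. The group had 15 members, with median log2 changes of 2.08, 2.62 and 2.40. Anxa8 stood at 2.25, 1.98 and 1.51 FPKM with vehicle and 68.8, 75.04 and 70.7 FPKM with TGFB1 in D7 non-IR, 4.66, 4.87 and 6.04 FPKM with vehicle and 166, 161 and 192 FPKM with TGFB1 in D7 IR, and 0.850, 2.46 and 2.57 FPKM with vehicle and 125, 113 and 149.9 FPKM with TGFB1 in D11 IR. Anxa1, an anti-inflammatory annexin, ranged from 19.2 to 20.2 FPKM with vehicle to 326 to 352 FPKM with TGFB1 in D7 non-IR, with log2 changes of 4.04 (SE 0.04), 3.75 (SE 0.07) and 4.59 (SE 0.10). The most abundant of them changed less than Anxa8. S100a6 had log2 changes of 2.90, 3.21 and 3.16, S100a11 of 1.67, 2.62 and 1.95, Anxa2 of 1.99, 2.00 and 1.19 and Anxa3 of 1.76, 2.75 and 2.10. With TGFB1, Anxa2 reached 3209 to 3382 FPKM in D7 non-IR, and S100a11 reached 4744 to 5749.5 FPKM in D7 IR. S100a11 had the highest mean level of all members. Anxa5 and Anxa10 had smallest log2 changes of 1.78 and 2.65.

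Matrix, basement membrane and adhesion genes numbered 23, with median log2 changes of 2.12, 2.16 and 1.75. Laminins anchor epithelium to the basement membrane, and Lama3 encodes a laminin chain. It stood at 0.580, 0.495 and 0.590 FPKM with vehicle and 52.6, 63.3 and 57.8 FPKM with TGFB1 in D7 non-IR, 0.306, 0.274 and 0.414 FPKM with vehicle and 35.6, 35.5 and 41.9 FPKM with TGFB1 in D7 IR, and 0.497, 0.688 and 0.689 FPKM with vehicle and 12.2, 8.41 and 10.6 FPKM with TGFB1 in D11 IR. Its TGFB1 level was lowest in D11 IR and its groups were separate throughout, with log2 changes of 5.24 (SE 0.08), 4.86 (SE 0.09) and 2.81 (SE 0.15). Lama5, of a laminin of mature epithelium, had log2 changes of 1.23, 1.09 and 1.09. Integrin chains bind laminins, collagens and fibronectin. Itga2 had log2 changes of 2.23, 1.57 and 1.23, Itga5 of 1.02, 1.35 and 1.08, Itgav of 2.09, 1.94 and 1.53 and Itgb6 of 2.01, 2.92 and 1.35. Integrin alpha-v beta-6, made of the last pair, releases active TGFB from its latent form. Lgals3, a galectin, was the most abundant of this group, with 64.8 to 71.6 FPKM with vehicle and 747 to 936 FPKM with TGFB1 in D7 IR. Thbs1, which encodes the matrix protein thrombospondin, had log2 changes of 2.50 (SE 0.06), 4.16 (SE 0.07) and 4.28 (SE 0.21), and Col18a1 of 1.84, 2.01 and 2.55. Cd44, a hyaluronan receptor, had 2.52, 2.04 and 1.77, and the adhesion molecule Igsf9 1.09, 1.49 and 1.35.

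Proteases and their inhibitors numbered 17, with median log2 changes of 2.50, 2.46 and 2.21. The plasminogen system turns a serum zymogen into the protease plasmin, and 4 of its 5 background genes were members. Plau (urokinase) had log2 changes of 2.38, 1.69 and 2.38, and its receptor Plaur of 2.04, 2.79 and 1.88. Serpinb5 (maspin) had log2 changes of 2.98, 3.23 and 2.71. Mmp7, a matrix metalloprotease of Paneth cells, had 1.21, 1.26 and 2.12 and was the group's most abundant member. Ctse, a further aspartic protease, had 3.39, 4.56 and 4.25, Prss22 3.03, 3.06 and 3.57 and Mcpt2 3.13, 4.67 and 3.26, while Timp3, a metalloprotease inhibitor, had 2.18, 2.46 and 1.59.

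Feedback and receptor genes numbered 16, with median log2 changes of 1.56, 1.89 and 1.56. Pmepa1 encodes a membrane protein that keeps SMADs from the receptor. It stood at 4.22, 3.85 and 4.59 FPKM with vehicle and 105, 104 and 98.2 FPKM with TGFB1 in D7 non-IR, 8.78, 9.05 and 9.58 FPKM with vehicle and 215, 223 and 229 FPKM with TGFB1 in D7 IR, and 4.58, 6.17 and 5.96 FPKM with vehicle and 107, 88.2 and 100.01 FPKM with TGFB1 in D11 IR. The groups were far apart in each table, with log2 changes of 4.31 (SE 0.07), 4.46 (SE 0.04) and 3.92 (SE 0.14). Skil (SnoN), a repressor of SMAD complexes, had 2.45, 2.46 and 1.62, and Smurf1, a ubiquitin ligase for SMADs and receptors, 1.43, 1.5003 and 1.44. Errfi1, an inhibitor of the EGF receptor, had 1.65, 1.40 and 1.29, Phlda1 1.28, 1.78 and 1.37, and Epha2, an ephrin receptor, 1.08, 1.54 and 1.58. The p53 target and kinase Plk2 had 2.02, 1.93 and 2.15.

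Transcription factors and partners numbered 22, with median log2 changes of 1.61, 2.27 and 1.54, and 15 of them changed most in D7 IR. Among AP-1 genes, Fos had log2 changes of 1.76 (SE 0.04), 2.87 (SE 0.10) and 1.06 (SE 0.11), Jun of 1.46 (SE 0.03), 2.48 (SE 0.05) and 1.56 (SE 0.10) and Fosl1 of 2.25 (SE 0.05), 2.64 (SE 0.21) and 3.14 (SE 0.07). Fosl1 stood at 1.84, 2.34 and 3.52 FPKM with vehicle and 20.4, 20.1 and 23.3 FPKM with TGFB1 in D7 IR. Tead4, the DNA-binding partner of YAP, had 2.10, 1.85 and 2.46. Elk3, an ETS factor, had 2.87, 3.51 and 3.36, Mycn 2.25, 2.27 and 1.74, the forkhead factors Foxq1 1.32, 2.31 and 1.02 and Foxa1 1.36, 1.49 and 1.66. YAP targets in the set were Cyr61, Ctgf, Amotl1 and Ajuba. Cyr61 encodes a secreted matrix protein of the CCN family and stood at 20.5, 19.7 and 18.4 FPKM with vehicle and 71.7, 82.6 and 77.6 FPKM with TGFB1 in D7 non-IR, 5.79, 7.49 and 7.52 FPKM with vehicle and 74.96, 80.7 and 88.4 FPKM with TGFB1 in D7 IR, and 7.94, 11.5 and 10.0 FPKM with vehicle and 37.8, 31.2 and 37.1 FPKM with TGFB1 in D11 IR. Ctgf, its relative, had log2 changes of 4.22 (SE 0.09), 2.67 (SE 0.17) and 4.09 (SE 0.14), with vehicle levels of 8.06 to 9.78 FPKM in D7 non-IR against 0.785 to 1.54 in D7 IR. Amotl1 had 2.06, 1.88 and 2.43, and Ajuba, an adaptor at adherens junctions, 1.75, 2.64 and 2.45.

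Actin and tubulin genes, with their regulators, numbered 26, with median log2 changes of 1.88, 2.12 and 1.72. Tmsb4x (thymosin beta-4), which binds actin monomers, was the most abundant of this group, at 1399 to 1512 FPKM with vehicle and 3885 to 4161 FPKM with TGFB1 in D7 non-IR, and its log2 changes were 1.47, 1.85 and 1.0019. Flna, the actin crosslinker filamin A, had 1.71, 2.30 and 2.03, Pdlim7 2.42, 3.33 and 1.11, the actin-severing Gsn 1.59, 2.37 and 1.43, and the small GTPase Rhob 2.81, 3.90 and 1.07. Marcksl1 had 2.12, 2.15 and 1.73. The 4 caveola genes, which encode coat proteins of small membrane pits, had medians of 2.44, 2.71 and 3.16. Prkcdbp (now Cavin3) had log2 changes of 4.40, 4.64 and 3.88, Ptrf (Cavin1) of 2.26, 2.92 and 2.93, Ehd2 of 2.62, 2.49 and 2.18 and Cav2 of 2.19, 1.94 and 3.40. Keratin, cell junction and cornified-envelope genes numbered 6. Krt7, a keratin of simple ductal epithelia, stood at 257, 265 and 269 FPKM with vehicle and 1289.9, 1381 and 1335 FPKM with TGFB1 in D7 non-IR, with log2 changes of 2.34, 2.61 and 2.24. Krt14, a basal keratin, was at most 0.176 FPKM in any vehicle library, with 1.87, 3.51 and 2.34, and Krt80 had 1.22, 1.77 and 2.18. Sprr1a, a cornified-envelope precursor, had 2.88, 1.70 and 2.37.

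Cytokines and inflammatory receptors numbered 17, with median log2 changes of 1.59, 2.06 and 1.38. Il1rn, the interleukin-1 receptor antagonist, stood at 5.42, 6.43 and 5.43 FPKM with vehicle and 24.0, 25.2 and 23.9 FPKM with TGFB1 in D7 non-IR, 17.0, 18.01 and 16.9 FPKM with vehicle and 204, 199 and 225 FPKM with TGFB1 in D7 IR, and 32.9, 35.9 and 37.6 FPKM with vehicle and 93.5, 95.3 and 71.8 FPKM with TGFB1 in D11 IR. Its vehicle levels were higher in the irradiated conditions and its largest change was in D7 IR. Tnfrsf11b (osteoprotegerin), a decoy receptor, had log2 changes of 4.58, 4.29 and 3.07, Tnfrsf12a (the TWEAK receptor) 1.36, 2.18 and 1.51, the chemokine Cxcl16 1.59, 2.89 and 1.43, Tnf 1.19, 2.63 and 1.22 and Pdgfb 1.72, 3.56 and 1.06. Channels and transporters numbered 17. The calcium-activated chloride channel Ano1 had 2.87, 2.90 and 2.69, the ATP-gated channel P2rx2 4.74, 5.11 and 3.71, Slc4a11 3.63, 3.77 and 4.63, Fxyd3 1.52, 1.44 and 1.60 and Slc25a24 1.38, 1.45 and 1.13. Metabolic and retinoid genes numbered 16. Aldh1a3 and Rdh10 make retinoic acid and retinal. Aldh1a3 had 4.85, 4.99 and 2.96 and Rdh10 2.46, 2.37 and 2.38. Sat1, of polyamine breakdown, had 1.37, 2.60 and 1.27, Sptssb, a subunit of the enzyme that starts sphingolipid synthesis, 3.28, 3.14 and 4.79, and Mboat1 and Galnt3 1.08, 1.56 and 1.41 and 1.05, 1.42 and 1.38. Arl4c, a small GTPase that fits none of these groups, had 3.11, 3.13 and 3.54. The remaining 78 members were given no role group.

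**Figure D1:**
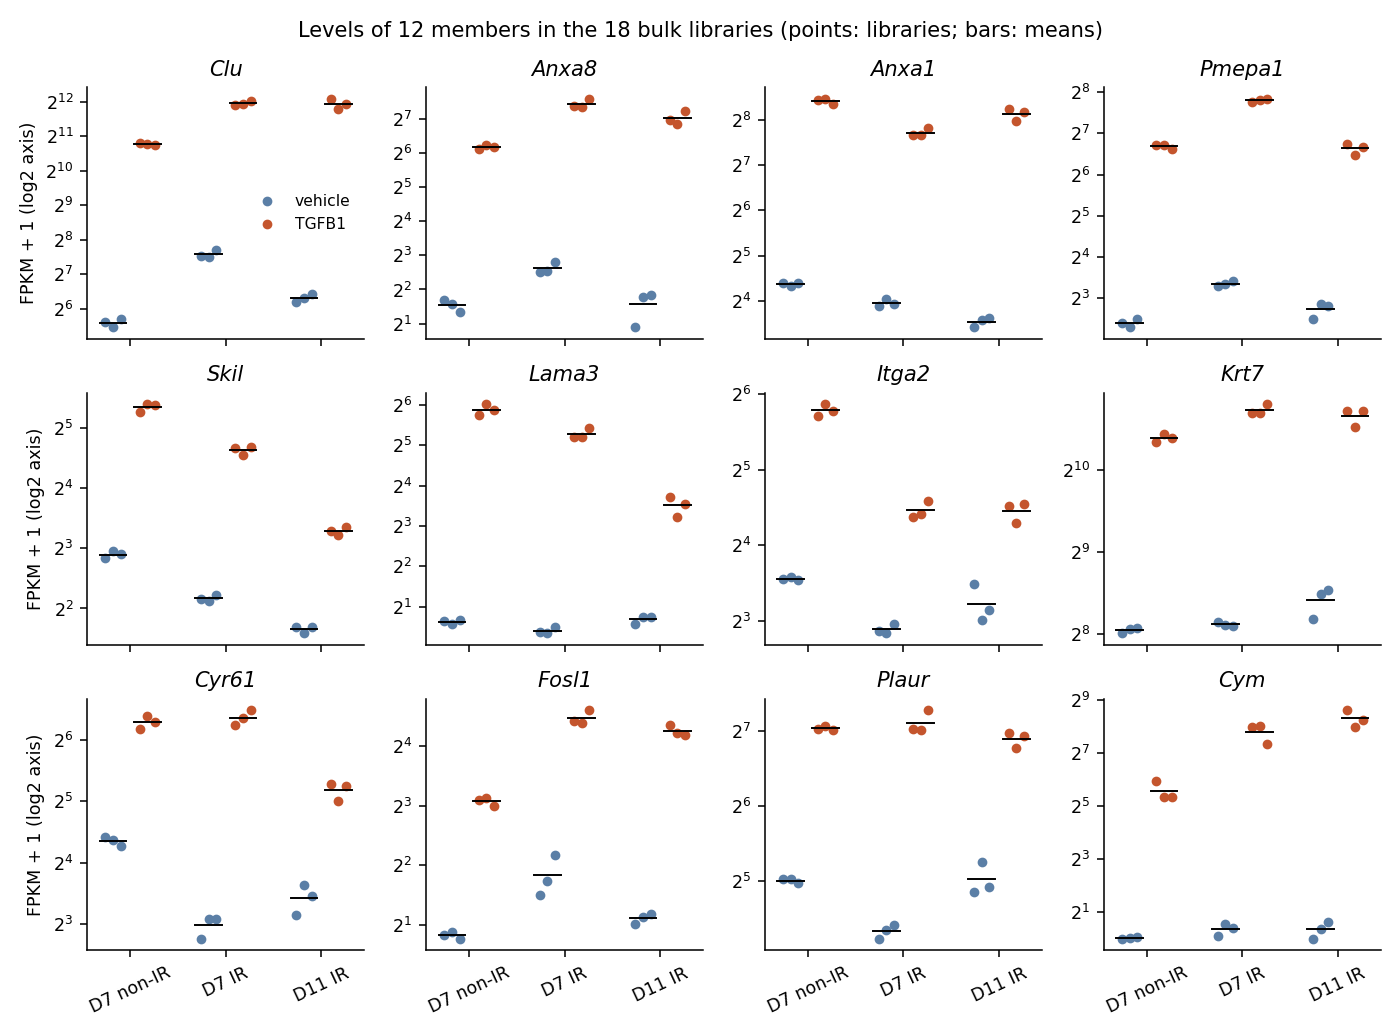
FPKM + 1 (log2 axis) of 12 members in each of the 18 bulk libraries, by condition on the x axis; points are libraries, bars are group means, blue is vehicle and orange is TGFB1. In all 12 panels the orange points lie above the blue points of the same condition; Clu reaches 4352 FPKM in D11 IR, and Cym starts near 0.

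Between conditions, the 3 log2 changes lay within 1 unit of each other in 179 of 257 members. Of the 3 changes, that of D7 IR was the largest for 130 members, that of D11 IR for 76 and that of D7 non-IR for 51. The D7 IR change exceeded that of D7 non-IR by at least 1 unit in 20 members and was smaller by as much in 6. The D11 IR change exceeded that of D7 IR by at least 1 unit in 19 and was smaller in 42. These counts come from the values of the selection and carry no test, and their shares over background genes were not computed.

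Gkn3, a secreted gastrokine that is used as a stem cell marker in this tissue, stood out in D7 non-IR. It stood at 3.80, 2.82 and 1.41 FPKM with vehicle and 153, 128 and 122 FPKM with TGFB1 there, 13.4, 13.9 and 12.7 FPKM with vehicle and 69.9, 68.5 and 49.6 FPKM with TGFB1 in D7 IR, and 32.1, 36.3 and 32.7 FPKM with vehicle and 99.2, 66.7 and 58.1 FPKM with TGFB1 in D11 IR. Its vehicle level was higher in both irradiated conditions, and its log2 changes were 5.21 (SE 0.31), 2.15 (SE 0.16) and 1.12 (SE 0.24). Fstl4, Cfi and Itga2 also changed most there, with the D7 non-IR change above the next largest by 1.22, 0.86 and 0.65 units. Pdgfb, Il1rn, Cyr61, Tnf and Mcpt2 led in D7 IR, by 1.84, 1.61, 1.45, 1.41 and 1.41 units over their next largest change. Pdgfb, a mesenchymal growth factor, stood at 4.09, 3.69 and 3.65 FPKM with vehicle and 53.2, 52.5 and 61.8 FPKM with TGFB1 in D7 IR. In D11 IR the leaders were Slc25a48, Wfdc18, F2r, Basp1 and Vsig1, by 2.70, 2.52, 2.22, 1.97 and 1.59 units. F2r, the thrombin receptor, stood at 0.780, 0.517 and 0.552 FPKM with vehicle and 4.02, 3.48 and 3.75 FPKM with TGFB1 in D7 IR and 0.0763, 0.0987 and 0.223 FPKM with vehicle and 14.3, 12.9 and 16.4 FPKM with TGFB1 in D11 IR. Wfdc18 stood at 0, 0 and 0.257 FPKM with vehicle and 36.5, 27.5 and 27.7 FPKM with TGFB1 in D11 IR, where 2 vehicle libraries were at 0. Basp1 had log2 changes of 2.02, 2.35 and 4.32 and Vsig1 of 1.75, 1.94 and 3.53.

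With vehicle alone, D7 IR levels were above those of D7 non-IR by 2-fold or more for 14 members and below by as much for 23, beside 7.3% and 6.88% of background genes. The median difference was -0.11 log2 units over members and -0.02 over background genes. The tables were normalized separately, so these levels are set side by side without a test. Between D11 IR and D7 IR, 8 were higher and 10 lower, beside 3.04% and 2.85% of background genes.

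**Figure D2:**
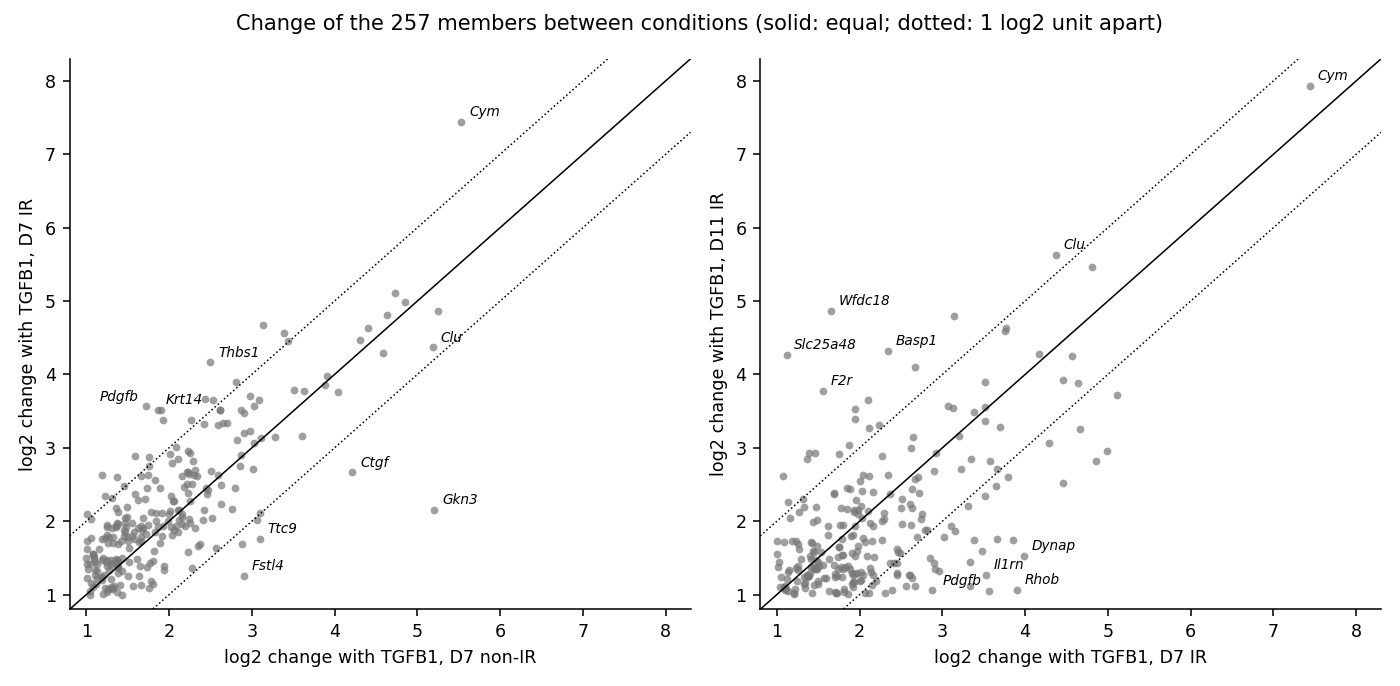
Log2 change with TGFB1 of each of the 257 members (points) in D7 IR against D7 non-IR (left) and in D11 IR against D7 IR (right); the solid line marks equal change and the dotted lines 1 unit. Most points lie between the dotted lines; Gkn3 lies far below the line on the left and Slc25a48, Wfdc18, F2r and Basp1 above it on the right.

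The single-cell libraries took no part in the selection, and all 257 members were found in them, 9 under a newer symbol. Values are CPM, a gene's UMIs over the kept cells of a library scaled to a fixed library total of 1000000. A member was called past 2-fold when CPM + 1 was at least 2 times that of the 0 h library and the 95% Poisson intervals, which cover counting error only, lay apart. Each time is 1 library, so no difference between times has a replicate check. After 6 h 50 members (19.5%) were past 2-fold, after 15 h 124 (48.2%) and after 24 h 197 (76.7%), beside 1.09%, 2.71% and 4.89% of the 10603 background genes found in these libraries. No member was 2-fold lower at any time by the same rule, and the share of background genes that were was not computed. Over all genes of the matrix at a mean of at least 5 CPM, whatever their bulk level, the shares were 1.31%, 2.51% and 4.61%, and of the 151 members at that level 42, 88 and 123 were past 2-fold. That mean includes the treated libraries, so a gene could reach the level through its own rise. This favours calls past 2-fold, and the counts are no independent check. With a prior of 5 CPM in place of 1, which damps low genes, 23, 70 and 117 of the 257 were past 2-fold. The share of background genes with that prior was not computed.

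Onset was spread over the course. The first time past 2-fold was 6 h for 50 members, 15 h for 75 and 24 h for 74, together 199 members, beside 5.24% of background genes at any time. All 50 of the 6 h onset members were past 2-fold at 24 h too. In 193 members CPM rose in order over the 4 libraries, and 243 were highest at 24 h, 13 at 15 h and 1, the sialyltransferase gene St3gal3, at 6 h. The shares of background genes with such an order or peak were not computed, so these counts are description only. The other 58 never passed, and 31 of these were under 5 CPM in all 4 libraries. The added 1 CPM can make low genes pass later or not at all. The 11 members under 1 CPM in all 4 libraries could not pass.

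Early onset was led by the feedback gene Pmepa1, at 15.6, 161, 231 and 334 CPM after 0, 6, 15 and 24 h. Its ratio of 6 h to 0 h was 10.3 (95% interval 9.32 to 11.4). Ano1 was also among the largest by fold of CPM + 1 at 6 h, at 2.63, 18.4, 32.1 and 49.9 CPM. Lama3 went from 2 UMIs in all cells at 0 h to 4.59 CPM at 6 h and 26.1 CPM at 24 h. Ncmap stood at 0.558, 6.57, 8.59 and 14.2 CPM, Clu at 13.3, 67.8, 325 and 773 CPM, Mycn at 1.13, 8.79, 12.2 and 14.2 CPM and Cym at 0.110, 3.76, 21.7 and 102 CPM. These early members kept climbing after 6 h, Mycn least of them. Skil, the SMAD repressor, also had its onset at 6 h, at 28.0, 83.8, 96.0 and 101 CPM, and was nearly level from then on.

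Among members not yet past at 6 h, the largest folds at 24 h were in Anxa1 (3.25, 4.01, 31.1 and 98.2 CPM), Cwh43 (0.439, 1.36, 8.71 and 21.6 CPM), P2rx2 (0.110, 1.14, 5.78 and 13.6 CPM), S100a6 (179.8, 322, 959 and 1773 CPM) and Mmp7 (1.79, 3.85, 10.8 and 25.4 CPM). P2rx2, Cwh43 and Mmp7 missed the 6 h call through the 1 CPM added to both values. Without it, their CPM at 6 h was more than 2-fold that of 0 h. Anxa1 barely differed from 0 h at 6 h, with a ratio of 1.23 (95% interval 0.933 to 1.63), and reached 30.2 (95% interval 24.4 to 37.7) at 24 h. Paneth markers as a list of 9 went from 620 CPM at 0 h to 1277 CPM at 24 h and enteroendocrine markers from 34.6 to 183 CPM, while 12 proliferation markers went from 1090.4 to 728 CPM. The 9 pan-epithelial markers went from 6681 to 11763 CPM and the 7 tuft markers from 2.56 to 10.0 CPM. The median mitochondrial share of UMIs per cell was 2.95, 3.24, 4.34 and 4.85% at 0, 6, 15 and 24 h. The part of these shifts in the members' changes was not tested.

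Onset differed between role groups as counts. All 4 caveola genes and 8 of 15 annexin and S100 genes had their onset at 15 h, as did 8 of 17 cytokine and receptor genes. Matrix and adhesion genes had 7 of 23 at 6 h, 6 at 15 h, 9 at 24 h and 1 never. Proteases and inhibitors had 4, 4, 6 and 3 of 17, and transcription factors 5, 5, 6 and 6 of 22. Actin and tubulin genes, with their regulators, had 5, 9, 7 and 5 of 26, feedback genes 2, 5, 5 and 4 of 16, channels and transporters 4, 2, 5 and 6 of 17, and metabolic genes 2, 4, 6 and 4 of 16. No test of these differences was made.

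The members that never passed 2-fold at the highest levels were Fos, Jun and Errfi1. Fos stood at 589, 753, 970.1 and 981 CPM, Jun at 394, 496, 613 and 672 CPM and Errfi1 at 162, 241, 279.97 and 305 CPM. All 3 were higher at each later time than at 0 h, short of 2-fold. Sprr1a also never passed, at 17.3, 10.9, 17.6 and 28.1 CPM, and was below 0 h at 6 h. The bulk contrast used 2 ng/mL and the single cells 1 ng/mL, on different days, so the folds of the assays are not compared.

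**Figure D3:**
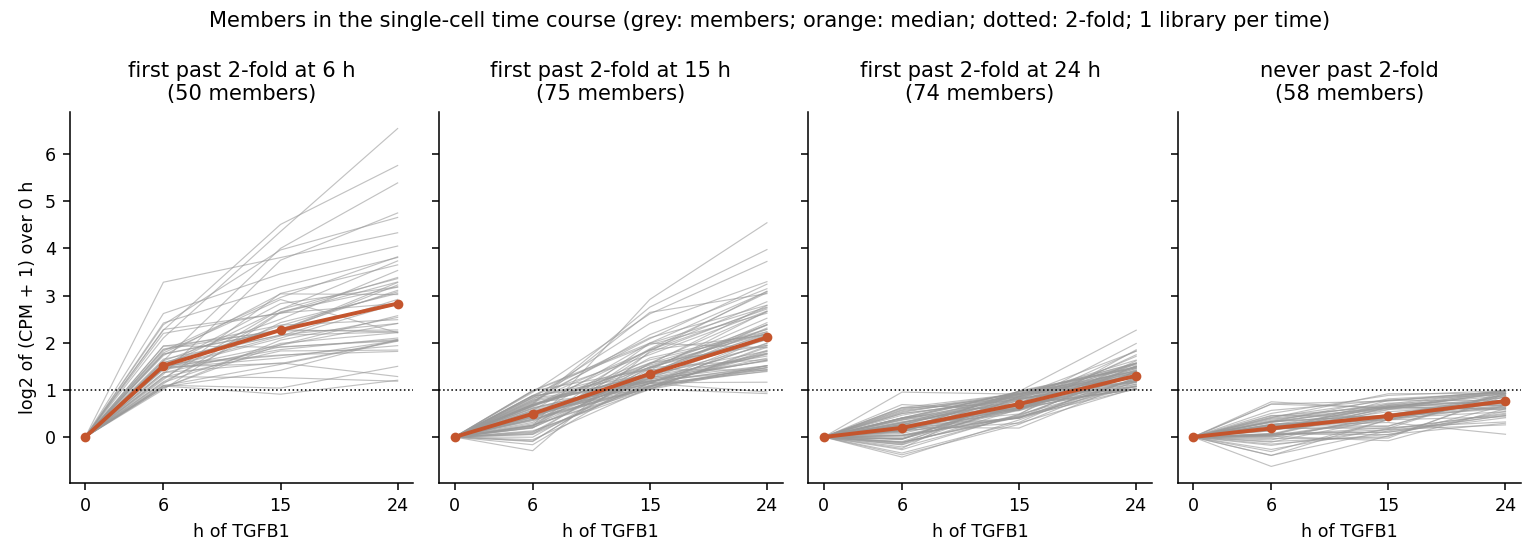
Log2 of (CPM + 1) over the 0 h library for each member (grey) against h of TGFB1, split by the first time past 2-fold, with the median in orange and 2-fold dotted; 1 library per time. The early panel (50 members) is already past 2-fold at 6 h and climbs to 24 h; the last panel (58 members) stays under the line.

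Per cell, member UMIs spread widely. After each cell was thinned to 2000 UMIs, the members held a median of 0.65% of a cell's UMIs at 0 h, 0.90% at 6 h, 1.25% at 15 h and 1.45% at 24 h. The 5th percentile went from 0.30 to 0.55% and the 95th from 1.30 to 4.75%, so the upper end moved most. The median number of members with a UMI in a cell went from 8 to 11, 13 and 16. Thinning left out 1 cell at 0 h and 5 at 6 h. Much of this sum came from few genes. Tmsb4x, Lypd8, Fos, Jun and Anxa2 made up 55.4% of member UMIs at 0 h. Without these 5 the members held 0.324% of all UMIs at 0 h, and 0.504, 0.878 and 1.32% at 6, 15 and 24 h. The unthinned share with all members was 0.726, 1.05, 1.62 and 2.17%. The part of free RNA in these shares was not tested.

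**Figure D4:**
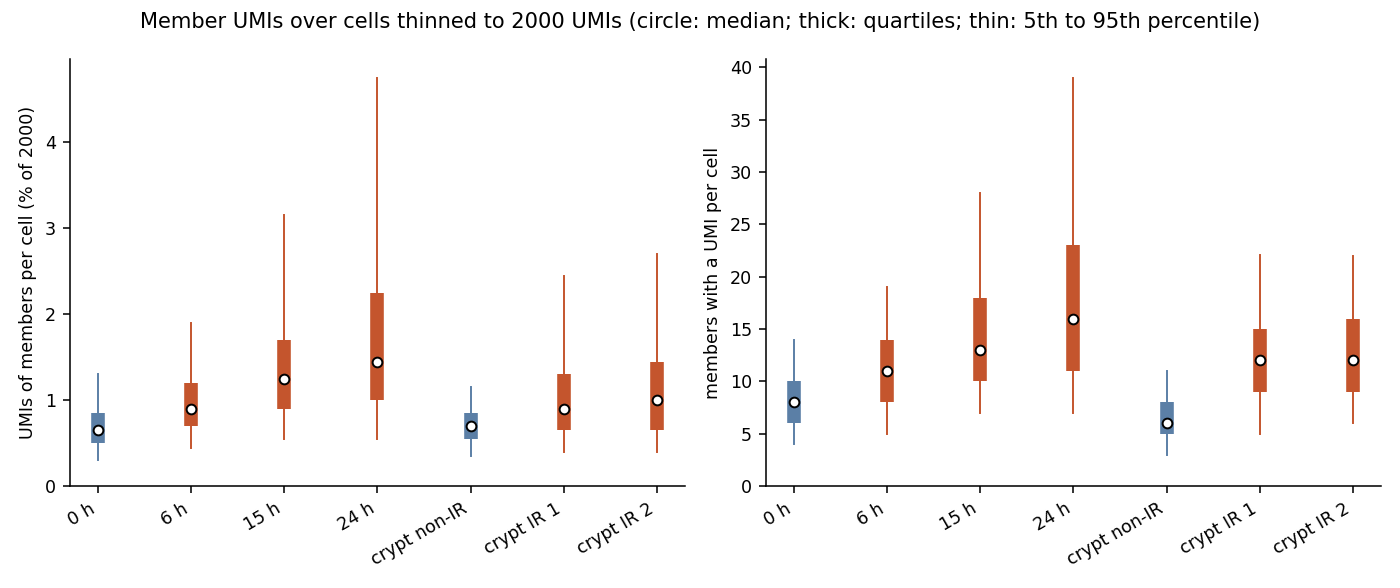
Share of a cell's UMIs that belong to members (left, % of 2000 UMIs) and number of members with a UMI (right) over cells thinned to 2000 UMIs, per library; circles are medians, thick bars quartiles, thin lines the 5th to 95th percentile, blue for the untreated or non-irradiated library. The 24 h library spans 0.55 to 4.75% and both irradiated crypt libraries have a median of 12 members per cell.

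In crypt cells 56 h after 12 Gy most members were higher than in cells without irradiation. Of 238 members tested, 173 (72.7%) were higher and 13 (5.46%) lower at an adjusted p under 0.05 in edgeR's quasi-likelihood test, 52 had no call and 19 were too low to test. Over all 16366 genes tested, 17.1% were higher and 16.6% lower. Over the 10603 background genes, 17.5% were higher and 20.3% lower, beside 67.3% and 5.06% of all 257 members. The median log2 change was 2.14 over the tested members and 0.00 over all tested genes. It stayed 2.14 with members that had no UMI in the non-irradiated library set at their lower bound. For those called higher every bound lay above this median, so the step could not have moved it through them. Both irradiated libraries lay on the called side for every called member. The call was made on these same libraries and favours such agreement, and the share over all called genes was not computed.

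The design is 1 library against 2, so 1 residual degree of freedom was left and the lone library was assumed to vary like the others. Without a test, 131 members (51.0%) were at least 2-fold higher in both irradiated libraries, beside 7.51% of background genes, and 8 (3.11%) at least 2-fold lower in both, beside 4.11%. By the labels, irradiated crypts passed a wider strainer than non-irradiated ones (100 against 70 μm), and strainer and irradiation cannot be told apart. Cell markers moved too. The 12 enterocyte markers summed to 4458 CPM without irradiation and to 910.2 and 2707 CPM after it, the 9 Paneth markers to 3275, 911 and 1137 CPM, and the 10 stem markers to 2445, 1649 and 1140.1 CPM. Immune markers summed to 15.2, 25.2 and 17.8 CPM with 3 of 16 at 0 in each, and the 6 endothelial markers to 9.17, 16.7 and 16.7 CPM with 2, 2 and 3 at 0. The endothelial gene Pecam1 stood at 6.18, 10.7 and 11.6 CPM. Mki67 stood at 180.4, 158 and 138 CPM. The part of these shifts in the members' changes was not tested.

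The largest rises by the fit were in genes with few or no UMIs before irradiation. Sprr1a had no UMI in the non-irradiated library and 12.5 and 17.0 CPM after irradiation, so it was at least 127-fold higher against a floor of 3 UMIs per library. Anxa10 and Pear1, a platelet endothelial receptor, also had none, and were at least 117-fold and 107-fold higher. The part of the endothelial marker rise above in the Pear1 change was not tested. S100a3 and Wfdc18 were at least 22.8-fold and 19.0-fold higher by the same bound. In all, 13 members called higher had no UMI in the non-irradiated library, and their bounds ran from 5.04 to 127-fold. Anxa8, with 1 UMI before irradiation, stood at 0.0388 CPM without irradiation and 22.6 and 34.4 CPM after it, a ratio of 727 (95% interval 130.1 to 28763). Il1rn had 3 UMIs and a ratio of 564 (95% interval 193 to 2735), Slc4a11 3 UMIs and 343 (95% interval 117 to 1664). For Ctgf, with 1 UMI, the ratio was 275 (95% interval 48.9 to 10888), and for Plaur, with 3, it was 239.8 (95% interval 81.7 to 1165). Such intervals cover counting error only.

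Members with 7 or more UMIs before irradiation rose as well. Clu stood at 0.272 CPM without irradiation and 49.8 and 74.4 CPM after it (log2 change 7.62, SE 0.38, adjusted p = 5.78e-08). S100a6 stood at 10.9 CPM without irradiation and 1338 and 1946 CPM after it (log2 change 7.05, SE 0.28, adjusted p = 1.26e-08). Anxa3 stood at 0.466 CPM without irradiation and 60.2 and 89.5 CPM after it (log2 change 7.13, SE 0.35, adjusted p = 5.43e-08). In the annexin and S100 group 14 of 15 were higher and none lower, and S100a7a had no call. S100a11 rose with a log2 change of 3.32, SE 0.21, adjusted p = 2.56e-07, Anxa5 with 3.06, SE 0.22, adjusted p = 7.5e-07, and Anxa2 with 1.79, SE 0.17, adjusted p = 7.93e-06. Matrix and adhesion genes had 19 of 23 higher and 1 lower. Lama5 stood at 0.582 CPM without irradiation and 17.5 and 25.9 CPM after it (log2 change 5.03, SE 0.36, adjusted p = 6.96e-07). Cd44 rose with a log2 change of 3.00, SE 0.17, adjusted p = 1.58e-07, while Igsf9 was lower, at -1.29, SE 0.20, adjusted p = 3.46e-04.

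Proteases and inhibitors had 11 of 17 higher and 1, Timp3, lower. Serpinb5 stood at 0.854 CPM without irradiation and 26.7 and 38.9 CPM after it (log2 change 5.07, SE 0.32, adjusted p = 2.8e-07). Mmp7 stood at 6.05 CPM without irradiation and 29.7 and 35.0 CPM after it, while the Paneth marker list it belongs to was lower after irradiation. Cym, the member with the largest change in organoids, stood at 0.699 CPM without irradiation and 0.510 and 0.729 CPM after it and had no call (log2 change -0.36, SE 0.67, adjusted p = 0.730). Cfi had none either. Cytokines and receptors had 13 of 17 higher and none lower. Cxcl16 rose with a log2 change of 4.83, SE 0.31, adjusted p = 3.02e-07 and Tnfrsf12a with 2.66, SE 0.18, adjusted p = 5.79e-07. Tnf stood at 0.194 CPM without irradiation and 15.8 and 9.56 CPM after it (log2 change 5.81, SE 0.50, adjusted p = 3.31e-06). Metabolic genes had 13 of 16 higher and none lower, among them Mboat1 at 1.40 CPM without irradiation and 106 and 112 CPM after it (log2 change 6.10, SE 0.22, adjusted p = 6.41e-09). Channels and transporters had 12 of 17 higher, 3 of 4 caveola genes were, and 4 of 6 keratin, junction and envelope genes. Krt7 stood at 51.4 CPM without irradiation and 221 and 255 CPM after it (log2 change 2.03, SE 0.17, adjusted p = 2.41e-06).

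Of feedback genes 7 of 16 were at least 2-fold higher in both irradiated libraries, and of transcription factors 10 of 22. The counts were 7 of 17 for proteases and inhibitors, 32 of 78 for members without a role group and 131 of all 257. No test of differences between groups was made. Pmepa1 rose, at 11.7 CPM without irradiation and 96.6 and 106 CPM after it (log2 change 2.94, SE 0.17, adjusted p = 1.98e-07). Skil (0.04, SE 0.17, adjusted p = 0.887) and Smurf1 (0.51, SE 0.21, adjusted p = 0.0858) had no call. Dusp1, a phosphatase of MAP kinases, was lower (-1.60, SE 0.16, adjusted p = 1.07e-05). Fosl1 rose, at 1.24 CPM without irradiation and 10.6 and 14.4 CPM after it (log2 change 3.14, SE 0.32, adjusted p = 1.21e-05), whereas Fos and Jun fell. Fos stood at 297 CPM without irradiation and 190.3 and 197 CPM after it (log2 change -0.80, SE 0.14, adjusted p = 8.99e-04) and Jun at 324 CPM without irradiation and 202 and 206 CPM after it (log2 change -0.84, SE 0.14, adjusted p = 6.02e-04). These AP-1 members, all higher with TGFB1 in bulk organoids, lay on both sides in crypt cells. Actin and tubulin genes, with their regulators, had 20 of 26 higher and 2 lower. Gsn rose with 3.89, SE 0.28, adjusted p = 7.37e-07 and Flna with 2.44, SE 0.29, adjusted p = 4.62e-05, and Tmsb4x was lower with -0.51, SE 0.13, adjusted p = 0.00974.

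The largest falls were in Lect2, Mycn, Gkn3, Hspa1a and Timp3. Lect2, a secreted chemotactic factor, had 73 UMIs without irradiation and 0 and 1 after it, a ratio of 0.0135 (95% interval 3.38e-04 to 0.0778). Mycn stood at 7.49 CPM without irradiation and 0.947 and 0.891 CPM after it (log2 change -3.19, SE 0.34, adjusted p = 1.65e-05). Gkn3 stood at 69.0 CPM without irradiation and 19.1 and 11.0 CPM after it (log2 change -2.36, SE 0.23, adjusted p = 8.44e-06). Hspa1a, a heat shock gene, had a log2 change of -2.23, SE 0.19, adjusted p = 2.72e-06 and Timp3 of -1.76, SE 0.28, adjusted p = 4.08e-04. Hspa1b, a near-identical copy of Hspa1a, also fell, and reads of the pair may be split between them. The same limit holds for Tnfrsf22 and Tnfrsf23, Acot9 and Acot10, Tuba1a, and the pseudogene Gpr137b-ps. The other members called lower were Lypd8, Dusp1, Igsf9, Tnnt2, Jun, Fos and Tmsb4x.

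By onset in organoids, 32 of the 50 members of 6 h onset were higher in irradiated crypts and 4 lower. For 15 h onset the counts were 56 and 1 of 75, for 24 h onset 54 and 4 of 74, and for members that never passed 31 and 4 of 58. The 4 that fell in the 6 h group were Gkn3, Lect2, Mycn and Timp3. With DESeq2 in place of edgeR fewer members were called higher. Of the members named here, Arl4c, Elk3, Prkcdbp, Gcnt1, Tspan9, Itga5, Itgb6, Thbs1 and Col18a1 were higher in edgeR and lost the call in DESeq2, and Tnnt2 lost its fall.

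**Figure D5:**
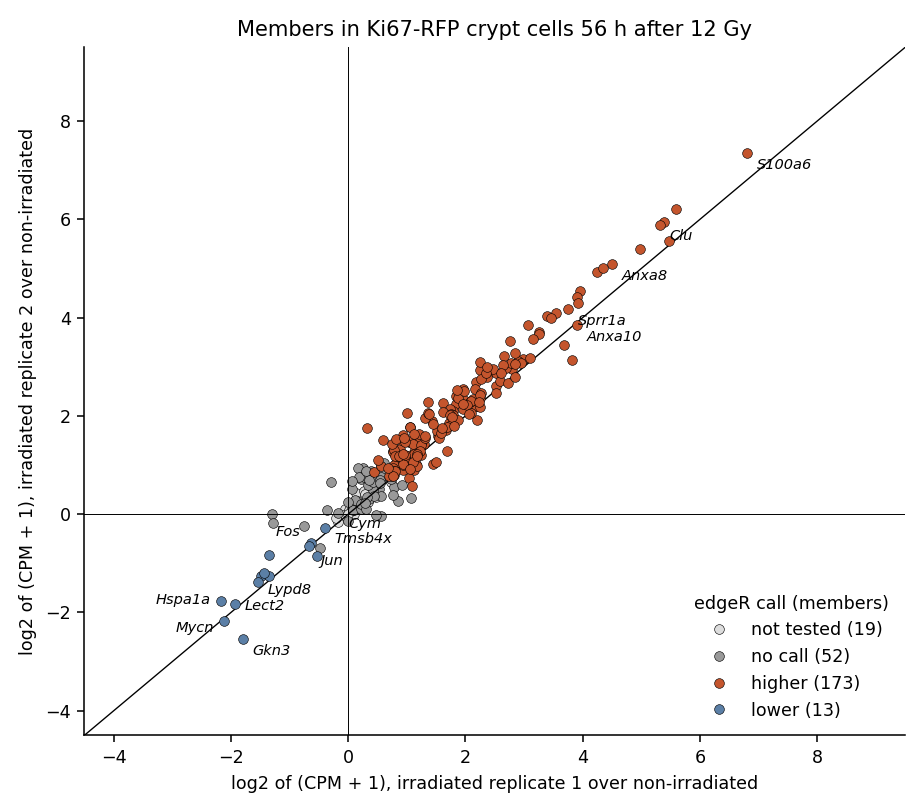
Log2 of (CPM + 1) in irradiated replicate 1 (x axis) and replicate 2 (y axis) over the non-irradiated library for the 257 members (points), coloured by edgeR call; the line marks equal change. Members called higher or lower lie on the called side in both replicates, which the call on these same libraries favours. S100a6 lies at the top and Gkn3 at the bottom.

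Of the fetal-like and regenerative list, 15 of 24 background genes were members. The list was drawn up with results of these data known and is no independent evidence of its direction. All 24 list genes tested in crypts were higher after 12 Gy (median log2 4.43), and 20 of 26 were past 2-fold at 24 h in organoid cells. Ly6a (Sca-1), the classic marker of regenerating crypts, is no member: its bulk log2 changes were 1.15, 0.75 and 2.37. It stood at 0.660 CPM without irradiation and 268 and 313 CPM after it. Of the TGFB pathway and feedback list, 6 of 27 background genes were members, among them Skil, Smurf1, Pmepa1, Itgb6 and Itgav. In crypts 6 of its 28 tested genes were higher and 8 lower, where 17.5% and 20.3% of background genes were. Tgfb1 itself stood at 6.58 CPM without irradiation and 19.2 and 20.1 CPM after it (log2 change 1.39, SE 0.21, adjusted p = 2.28e-04) and the receptor Tgfbr2 at 8.54 CPM without irradiation and 58.4 and 74.5 CPM after it (log2 change 2.78, SE 0.20, adjusted p = 7.64e-07). The inhibitory Smad7 fell (-0.83, SE 0.17), as did Smad6 (-2.97, SE 0.37) and the target Cdkn2b (-2.27, SE 0.19). Id3 fell too (-1.0022, SE 0.15). In organoid cells Id3 was also lower with TGFB1, at 41.2 CPM at 0 h and 26.9 CPM at 24 h. Id2 was lower there as well, at 46.1 and 25.7 CPM, but rose in crypts (0.65, SE 0.17). Smad7 rose with TGFB1 in bulk by 2.26 and 2.11 log2 units at D7 and missed the set with 0.89 in D11 IR. The YAP and TEAD list had 5 of 20 background genes in the set, and in crypts 13 of 19 tested genes were higher and 1 lower. The basement membrane list gave 5 of 12 members, integrins 4 of 10, keratins 3 of 8 and AP-1 3 of 8. Actin gave 2 of 23, p53 targets 1 of 17, and EGF family and claudins 0 of 8 and 0 of 10. Of all background genes 2.4% were members, and in lists this short 0 or 1 member cannot be told from that share. In crypts 15 of 17 p53 targets were higher, of which only Plk2 is a member (2.74, SE 0.31, adjusted p = 2.7e-05). Of cell type markers, Gkn3 (stem) and Mmp7 (Paneth) were members, and no proliferation, enterocyte, goblet, enteroendocrine or tuft marker was. None of the 16 immune and 12 mesenchymal markers reached the level filter, so none could be a member.

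Chromatin accessibility was also profiled, with 18 ATAC-seq peak lists, 3 per group as for bulk RNA. Between 2.87 and 3.87% of peaks lay within 500 bp of a start in the RefSeq table, beside 2.13 to 2.50% of the same peaks moved up by 100000 bp and 1.59 to 1.80% moved down by as much. The build of the lists was not settled from these shares, and no peak was assigned to a member.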

How the data were processed

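Bulk RNA was deposited as FPKM, 1 table per condition. The authors' tools, per the submitters' processing notes, include TopHat2 2.1.0 and Cuffnorm and Cuffdiff 2.2.1. The single-cell matrices hold estimated counts of UMIs, some of them fractional, deposited by the authors after STARsolo (STAR 2.7.10a), per the submitters' processing notes. The ATAC-seq peak lists hold a score per peak, as deposited by the authors (MACS2 2.1.0 is named in the same notes), and were used only to test whether their coordinates fit the reference. The builds mm9, GRCm39 and mm39 are named there with no role.

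The members, the gene lists and the tests were chosen with earlier results of these data known. Role groups were assigned by hand from textbook knowledge after the members were known. The bulk contrast chose the members and was not tested. For bulk RNA the SE of a log2 change is that of the log2(FPKM + 1) values over 3 against 3 libraries. FPKM + 1 understates the change of low genes. For crypt cells the SE is the size of the log2 change over the square root of edgeR's quasi-likelihood F statistic. That fit had 1 library against 2 and 1 residual degree of freedom. Cells needed at least 500 UMIs and 250 genes and at most 20% mitochondrial UMIs. No doublet caller was run. UMIs were summed per library, and the sums were rounded for edgeR 4.0.16 (quasi-likelihood test, TMM, filterByExpr, Benjamini-Hochberg adjustment, threshold 0.05), with DESeq2 1.42.0 and limma 3.58.1 (voom) as alternatives, in R 4.3.3. The edgeR script was tested on simulated data. Cell barcodes, marker sums and promoter letters were handled in Python 3.11.15 with pandas 2.3.3 and scipy 1.17.1.

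The genes named were the 20 with the largest smallest change, 3 on each side of the threshold, the leading and lagging members of the time course, the largest crypt rises and falls, members of the lists, the most abundant of each role group and those whose change differed most between conditions. A few others (Skil's time course, Tnnt2, Dusp1, Igsf9, Fosl1 by library) were named after their values were seen. No column of per-sample values was left unmapped (0 columns). Some named members are not reported here.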

Additional observations from a re-analysis of the deposited data

How the results depend on the processing

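The number of members was 257 with the stated rule and 159 with a mean of at least 5 FPKM. It was 290 and 325 with pseudocounts of 0.5 and 0.1 FPKM, 268 with no filter, 259 from means of log2 values, and 254 and 261 after quantile and median-ratio scaling. Leaving out 1 bulk library at a time gave 246 to 262. With a prior of 5 CPM the members past 2-fold at 6, 15 and 24 h numbered 23, 70 and 117, and with a fold of 1.5 they numbered 89, 201 and 244. Thinned cells gave 46, 102 and 163. The shares of background genes under these time-course settings were not computed, and those of the main setting do not apply to them. In crypt cells the calls numbered 132 higher and 12 lower with DESeq2, and 169 to 184 higher and 12 to 16 lower under the other settings. Without 1 irradiated library the members at least 2-fold higher numbered 137 to 158 and those at least 2-fold lower 8 to 11. Shares over all genes under these crypt settings are not given here, so the counts show only how the member calls move. In the 150 bases before the start alone, which is a shorter window, the SMAD, AP-1 and TEAD letters stood in 35.4, 5.70 and 11.4% of member promoters, beside 26.5, 2.95 and 6.29% of those of background genes. No paired analysis was possible because the bulk contrast comes from no test and the crypt groups share fewer than 2 replicate numbers. The other settings for accessible regions were not run, since the build of the peaks was not settled. Each time and the non-irradiated crypts have 1 library, and members with 1 to 3 UMIs there also have wide counting intervals.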

Other observations

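Of the 58 members that did not pass 2-fold in the organoid time course, 31 were higher in crypt cells 56 h after 12 Gy and 4 lower. Of the 199 that passed at some time, 142 were higher. Without the 5 members most abundant at 0 h, an alternative added after seeing the data, the members held 0.183% of all UMIs in the non-irradiated crypt library and 0.664 and 0.840% in the irradiated ones. With all members the shares were 0.709, 1.05 and 1.27%.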
